A study of Homo sapiens with 4 samples.

Results

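The genes described here encode the subunits of RNA polymerases I, II and III, the initiation factors that belong to polymerases I and III alone, and the single-subunit polymerase of mitochondria. They were taken by symbol, as every row named POLR1, POLR2 or POLR3 with a subunit letter and an optional number or L, together with POLRMT, RRN3, UBTF, TAF1A, TAF1B, TAF1C, TAF1D, BRF1 and BRF2. This gave 40 of the 56638 rows of the count table, and all 40 passed the filter on low counts. Reads were counted in parental MV4;11 cells, a long-established human myeloid leukaemia line known for its KMT2A-AFF1 fusion and its FLT3 internal tandem duplication. One group had been given CU-T12-9 at 1 µg/mL for 24 h (2 libraries), a compound that activates the receptors TLR1 and TLR2, and the other had been given vehicle (2 libraries). All cells grew in RPMI. The vehicle is DMSO by the sample labels and PBS by the treatment protocol, and its libraries are called DMSO here. Separate cultures are not mentioned in the labels for libraries of the same group. The p-values therefore rest on a spread between libraries that may be technical.

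RNA polymerase I transcribes the large ribosomal RNA precursor in the nucleolus, RNA polymerase II makes messenger RNA, and RNA polymerase III makes transfer RNA, 5S ribosomal RNA and other short RNAs. All 3 enzymes share a set of small subunits, and polymerases I and III share a further pair, so 1 gene can serve several enzymes. Polymerases I and III supply ribosome and transfer RNA production and are driven by MYC in growing cells, while RB family proteins hold them back.

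In MV4;11 cells under CU-T12-9, 23 of the 40 genes fell and 5 rose (edgeR quasi-likelihood test, Benjamini-Hochberg adjusted p under 0.05 over all 14018 genes tested). That is 57.5% falling and 12.5% rising, against 33.2% falling and 32.0% rising among all genes tested, of which 65.2% were called. Their median log2 fold change was -0.25, with a range of -2.23 to 0.64, beside a median of 0.00 over all genes tested. POLR3G, a subunit of polymerase III found mostly in stem and tumour cells, moved furthest and was the only one of the 40 to change more than 2-fold. POLR2A, the largest subunit of polymerase II, went the other way from most of its partners. In 28 of the 40 genes both CU-T12-9 libraries lay below both DMSO libraries (41.7% of all genes tested) and in 7 both lay above (40.5%). Read counts give each messenger RNA as a share of a library from many cells, so fewer cells that express a gene and less of its RNA per cell cannot be told apart.

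By enzyme, 6 of 9 polymerase I rows fell and none rose (median log2 fold change -0.30). Beside this and each count below, 33.2% of all genes tested fell and 32.0% rose. Of 7 polymerase II core subunits, 4 fell and POLR2A rose (median -0.17). Of 12 polymerase III rows, 7 fell and POLR3GL rose (median -0.24). All 5 subunits shared by the 3 enzymes fell (median -0.45), and the pair shared by polymerases I and III split. The remaining rows outside the polymerase II core, 3 POLR2J copies and POLR2M, held no fall, and POLRMT was not called. The differences between the enzymes' counts and medians were not tested.

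**Figure D1:**
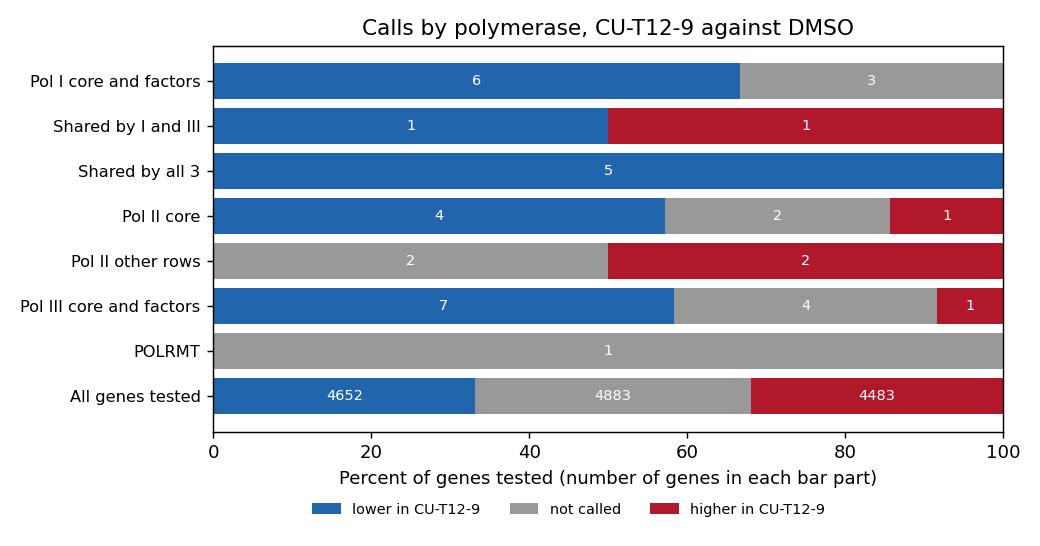
Share of genes called lower, not called and called higher under CU-T12-9 against DMSO, for each set of polymerase genes and, at the bottom, all 14018 genes tested; numbers in the bars are genes. Falls make up 6 of 9 polymerase I rows, 5 of 5 subunits shared by all 3 enzymes, 4 of 7 polymerase II core subunits and 7 of 12 polymerase III rows, against 4652 of 14018 overall.

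Libraries held 23201117 and 23087102 reads for CU-T12-9 and 25867733 and 23892934 for DMSO. Levels are given as CPM, read counts scaled to a common library size after TMM adjustment, and 1 read was worth 0.0384 to 0.0442 CPM. All 8 myeloid markers checked, among them PTPRC, CD33, SPI1 and LYZ, were read in every library (4 rose and 4 fell), whereas HBB, HBA1, EPCAM and KRT19 had no reads and the 3 T cell markers had 1 read in all. B cell markers summed to 11 and 12 reads under CU-T12-9, against 26 and 14 reads under DMSO. The proliferation markers MKI67, TOP2A, PCNA and MCM2 all fell, and summed to 581 and 576 CPM under CU-T12-9, against 2000 and 2000 CPM under DMSO. The polymerase genes below are compared between the same libraries, and of these 23 fell, 5 rose and 12 were not called. The part of the proliferation shift in their changes was not tested.

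What these genes share in sequence was looked at in RefSeq promoters, from 250 bases before to 50 bases after a gene's start (GRCh38.p14), which were at hand for 29 of the 40. The ETS core CGGAAG, letters found in many but not all sites of ETS transcription factors, stood on 1 strand or the other in 20 of the 29 (69.0%). The same letters stood in 39.4% of the 9341 tested genes with a promoter at hand and in 22.6% of all 27305 genes listed. Median GC content was 61.7% for the 29, 64.7% for the tested genes and 58.3% for all genes listed. The E-box CACGTG, which MYC and MAX bind, stood in POLR3A, POLR3C and POLR3E, or 10.3% of the 29 against 12.6% of tested genes. TATAAA stood in POLR2M alone, or 3.45% against 8.11%. No letters of one motif contain another, and both strands were searched. The ETS core stood in 12 of 17 genes that fell, 3 of 5 that rose and 5 of 7 that were not called. The stretches below show the match nearest to the gene start, in capitals, on the gene's own strand, for the 4 largest falls with a match, 1 rise and 1 uncalled gene, followed by the 3 E-box matches. They are drawn from chr3:184363309-184363338 (plus strand), chr6:43516954-43516983 (plus), chr2:112542411-112542440 (plus), chr2:127858152-127858181 (minus), chr13:27621865-27621894 (plus) and chr19:633613-633642 (minus), then chr10:78029533-78029562 (minus), chr1:145823992-145824021 (plus) and chr16:22297396-22297425 (plus).
POLR2H, fell: gggaggctgtggCGGAAGtggtcgcgttac
POLR1C, fell: aaaagcaacttcCGGAAGctggggacgtgg
POLR1B, fell: ctgcggccactaCTTCCGgcgtgtaccgag
POLR2D, fell: gagaccacgcccCTTCCGcggccgttgctc
POLR1D, rose: cgtcctccgcgcCTTCCGtcggtcggtcct
POLRMT, not called: cctgggagtctaCTTCCGgctggggtttcc
POLR3A, E-box, fell: agaggaagcggaCACGTGggacactctacg
POLR3C, E-box, not called: gcccgcgtcggtCACGTGagttggccaggc
POLR3E, E-box, fell: cccgctccccccCACGTGtccgccggagtt
CTTCCG is CGGAAG read on the opposite strand, and in POLR1C a match in that form overlaps the one in capitals. The matches are a description of these letters, and binding of any factor was not measured.

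All 3 polymerase I core subunits that the rule found fell, against 33.2% of all genes tested. POLR1A, the largest subunit, had 141 and 145 CPM in CU-T12-9 cells, against 168 and 175 CPM in DMSO cells (log2 fold change -0.26, SE 0.05, edgeR adjusted p = 0.0016). POLR1B, which forms the active centre with POLR1A, had 56.1 and 55.2 CPM in CU-T12-9 cells, against 85.5 and 87.4 CPM in DMSO cells (-0.64, SE 0.05, adjusted p = 8.02e-06). POLR1E, part of a dimer that helps initiation and elongation, had 41 and 37.7 CPM in CU-T12-9 cells, against 58.8 and 63.3 CPM in DMSO cells (-0.63, SE 0.07, adjusted p = 4.1e-05). The groups did not overlap for any of the 3 (41.7% of all genes tested lay wholly below), and POLR1A fell least. The other polymerase I subunits stand in the table under older symbols and were read beside them. CD3EAP, the dimer partner of POLR1E, fell most of all polymerase I subunits, to 36.5 and 32.4 CPM in CU-T12-9 cells, against 66.5 and 62.7 CPM in DMSO cells (-0.91, SE 0.07, adjusted p = 5.42e-06). TWISTNB, a subunit of the stalk, fell by 0.45 on the log2 scale and ZNRD1, a small subunit linked to RNA cleavage, by 0.34. With these, all 6 polymerase I core subunits fell, with a median of -0.54. Since 50.2% of the exonic bases of CD3EAP lie opposite ERCC1 and PPP1R13L, and 44.8% of those of ZNRD1 opposite ZNRD1ASP, the levels of both are uncertain without strand. ERCC1 had a log2 fold change of -0.13.

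The factors that bring polymerase I to ribosomal DNA divided. UBTF, which binds and opens ribosomal DNA, had 175 and 173 CPM in CU-T12-9 cells, against 171 and 180 CPM in DMSO cells, with overlapping groups (log2 fold change -0.01, SE 0.05, edgeR adjusted p = 0.86). RRN3, which joins polymerase I to its promoter complex, had 64 and 64.8 CPM in CU-T12-9 cells, against 59.2 and 60.5 CPM in DMSO cells (0.11, SE 0.06, adjusted p = 0.121). Its log2 fold change was 0.15 without CU-T12-9 library 1 and 0.10 without CU-T12-9 library 2, and reads could be shared with its near-identical pseudogenes. Among the SL1 subunits, which carry TBP to the ribosomal promoter, TAF1D fell to 81.6 and 77.7 CPM in CU-T12-9 cells, against 105 and 106 CPM in DMSO cells (-0.41, SE 0.05, adjusted p = 1.34e-04). TAF1B fell by 0.30 and TAF1C by 0.25 on the log2 scale. TAF1A, at 2.82 and 2.78 CPM in CU-T12-9 cells against 3.19 and 4.01 CPM in DMSO cells, did not pass (adjusted p = 0.131). With 1 library left out, the log2 fold change of TAF1B ran from -0.32 to -0.28. That of TAF1C ran from -0.37 to -0.11, the smallest fall being without CU-T12-9 library 2. DESeq2 called neither TAF1B nor TAF1C (adjusted p = 0.0779 and 0.112).

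POLR1C and POLR1D form the dimer on which polymerases I and III are assembled, and their messenger RNAs moved apart. POLR1C fell to 28.6 and 25 CPM in CU-T12-9 cells, against 45.3 and 44.8 CPM in DMSO cells (log2 fold change -0.75, SE 0.08, edgeR adjusted p = 2.87e-05). POLR1D rose to 129 and 131 CPM in CU-T12-9 cells, against 103 and 108 CPM in DMSO cells (0.30, SE 0.05, adjusted p = 8.23e-04). The log2 ratio of POLR1C reads to POLR1D reads was -2.17 and -2.38 in CU-T12-9 libraries and -1.18 and -1.27 in DMSO libraries, a 2.07-fold lower ratio under CU-T12-9. Exons of POLR1C share 10.5% of their bases with genes on the other strand, XPO5 and YIPF3 among them, and these 2 neighbours moved in opposite directions (-0.46 and 0.54).

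The 5 subunits common to all 3 polymerases all fell, against 33.2% of all genes tested. In each, both CU-T12-9 libraries lay below both DMSO libraries, as they did in 41.7% of all genes tested. POLR2H, a small shared subunit, had 39.7 and 38.8 CPM in CU-T12-9 cells, against 71.6 and 70.4 CPM in DMSO cells, the largest fall of the 5 (log2 fold change -0.86, SE 0.06, edgeR adjusted p = 1.62e-06). POLR2L, a small zinc-binding subunit, had 50.1 and 51.8 CPM in CU-T12-9 cells, against 80 and 80.7 CPM in DMSO cells (-0.66, SE 0.06, adjusted p = 7.36e-06). POLR2K and POLR2F fell by 0.45 and 0.43. POLR2E, which touches the DNA ahead of the active centre, fell least, to 204 and 223 CPM in CU-T12-9 cells, against 246 and 249 CPM in DMSO cells (-0.22, SE 0.06, adjusted p = 0.00822). With 1 library left out, the log2 fold change of POLR2E ran from -0.28 to -0.12, the smallest fall being without CU-T12-9 library 1.

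**Figure D2:**
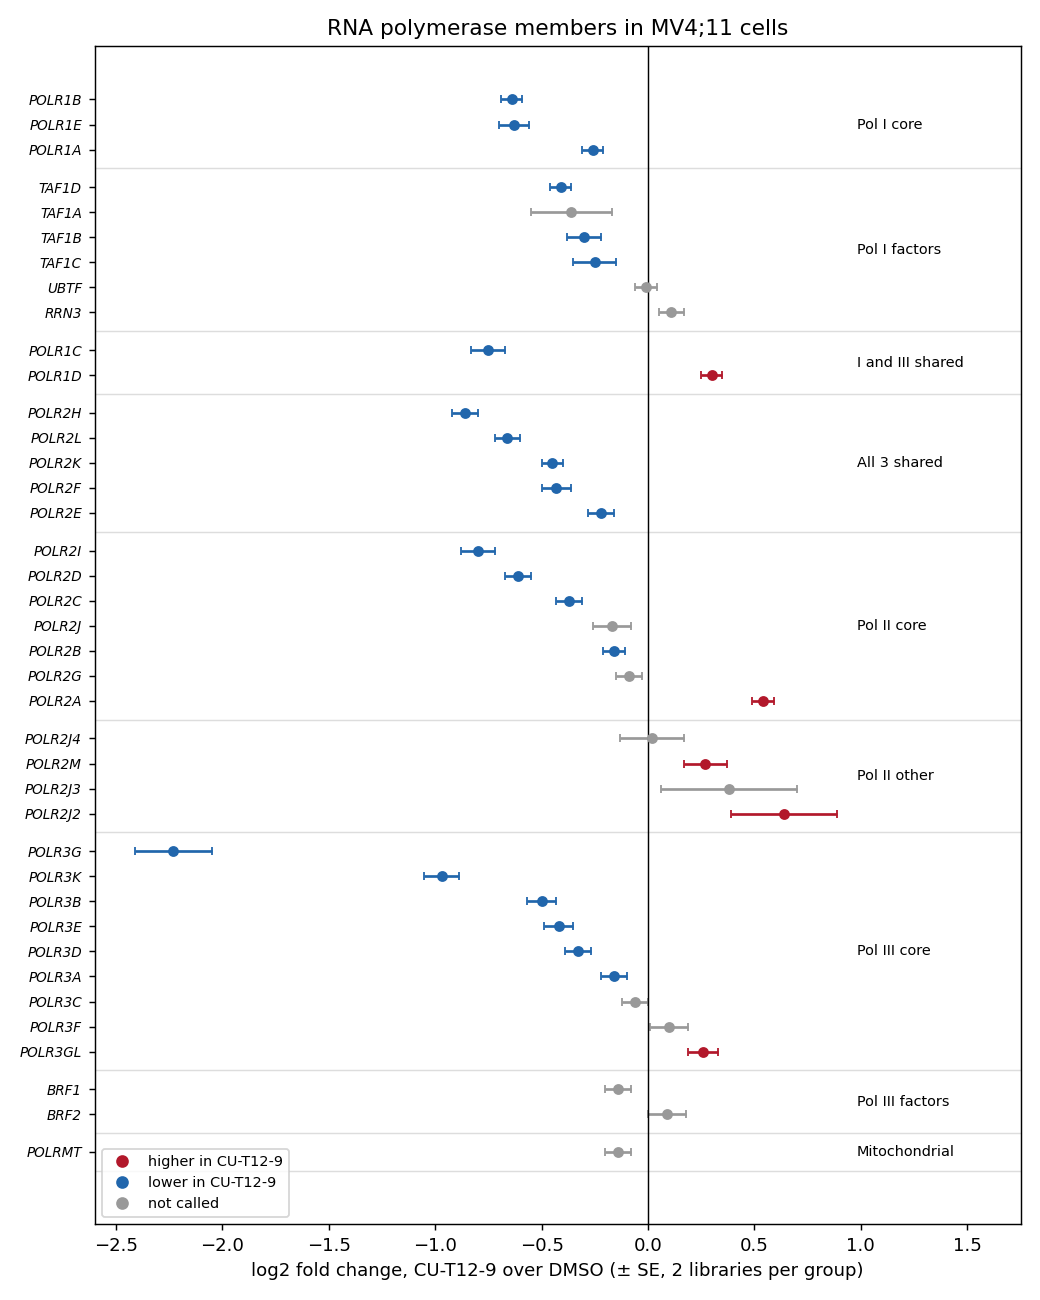
Log2 fold change of the polymerase genes described here, CU-T12-9 over DMSO, grouped by enzyme; points are edgeR estimates and bars are ± SE from 2 libraries per group. POLR3G stands apart at -2.23, while POLR2A (0.54), POLR1D (0.30) and POLR3GL (0.26) lie to the right of 0 within sets that mostly fell.

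Polymerase II did not move as a unit. POLR2A, which carries the active centre and the repeated C-terminal tail, rose to 460 and 474 CPM in CU-T12-9 cells, against 314 and 331 CPM in DMSO cells (log2 fold change 0.54, SE 0.05, edgeR adjusted p = 1.55e-05). POLR2B, the second-largest subunit, had 242 and 227 CPM in CU-T12-9 cells, against 264 and 260 CPM in DMSO cells (-0.16, SE 0.05, adjusted p = 0.0223). The log2 ratio of POLR2A reads to POLR2B reads was 0.93 and 1.06 in CU-T12-9 libraries and 0.25 and 0.35 in DMSO libraries, so the messenger RNAs of the 2 large subunits moved apart by 1.62-fold. Exons of POLR2B share 12.1% of their bases with IGFBP7 and NOA1 on the other strand, which moved in opposite directions (-2.01 and 0.56). The rise of POLR2A kept its call in every alternative setting that used all 4 libraries. Its log2 fold change was 0.49 to 0.59 over all 12 settings. The small fall of POLR2B did not keep its call, with an adjusted p of 0.0681 by DESeq2. With 1 library left out, its log2 fold change ran from -0.18 to -0.12.

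Among the smaller polymerase II subunits, POLR2I, which serves start site choice and fidelity, fell to 21 and 23.3 CPM in CU-T12-9 cells, against 37.7 and 39.5 CPM in DMSO cells (log2 fold change -0.80, SE 0.08, edgeR adjusted p = 1.8e-05). Since 72.0% of its exonic bases lie opposite other genes, TBCB among them, its level is uncertain without strand (TBCB had a log2 fold change of -0.03). The stalk subunits POLR2D and POLR2G differed in outcome. POLR2D fell to 42.3 and 39.9 CPM in CU-T12-9 cells, against 61.5 and 64 CPM in DMSO cells (-0.61, SE 0.06, adjusted p = 2.54e-05), whereas its partner POLR2G had 82.1 and 81.9 CPM in CU-T12-9 cells, against 84.5 and 89.7 CPM in DMSO cells (-0.09, SE 0.06, adjusted p = 0.198). POLR2C, which pairs with POLR2J at the start of assembly, fell by 0.37 on the log2 scale (adjusted p = 4.88e-04). POLR2J had 27.8 and 32.7 CPM in CU-T12-9 cells, against 32.2 and 35.7 CPM in DMSO cells, with overlapping groups (-0.17, adjusted p = 0.144). Its log2 fold change was -0.29 without CU-T12-9 library 2 and -0.02 without CU-T12-9 library 1.

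The POLR2J copies are near-identical to POLR2J and to each other, so reads can be split or moved between their rows. POLR2J2 had 2.05 and 1.77 CPM in CU-T12-9 cells, against 1.11 and 1.34 CPM in DMSO cells, from 29 to 48 reads a library (log2 fold change 0.64, SE 0.25, edgeR adjusted p = 0.045). That call was lost by DESeq2 (adjusted p = 0.295) and by edgeR with library totals only (adjusted p = 0.0529). With 1 library left out, the log2 fold change of POLR2J2 ran from 0.50 to 0.77. POLR2J3 had 2.91 and 1.5 CPM in CU-T12-9 cells, against 1.57 and 1.84 CPM in DMSO cells, and the transcribed copy POLR2J4 had 5.56 and 4.91 CPM against 5.37 and 4.97 CPM in DMSO cells; neither passed (adjusted p = 0.32 and 0.93). The log2 fold change of POLR2J3 was 0.77 without CU-T12-9 library 2 and -0.15 without CU-T12-9 library 1. POLR2M, a protein that binds polymerase II and makes it dependent on Mediator, had 26.2 and 30.9 CPM in CU-T12-9 cells, against 25.4 and 21.9 CPM in DMSO cells (0.27, SE 0.10, adjusted p = 0.0463). Its log2 fold change was 0.41 without CU-T12-9 library 1, 0.14 without CU-T12-9 library 2 and 0.16 without DMSO library 2. It lost its call by DESeq2 (adjusted p = 0.118), by limma (adjusted p = 0.0504) and by edgeR with library totals only (adjusted p = 0.0523). Of its exonic bases, 25.2% are shared with the read-through gene GCOM1, whose own row had no reads.

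Polymerase III held the largest single change. POLR3G and POLR3GL are alternative versions of 1 subunit of the enzyme, POLR3G being the form of stem and tumour cells and POLR3GL the general one. POLR3G fell to 1.71 and 1.41 CPM in CU-T12-9 cells, from 40 and 32 reads, against 6.99 and 7.73 CPM in DMSO cells, from 182 and 185 reads (log2 fold change -2.23, SE 0.18, edgeR adjusted p = 5.3e-06). POLR3GL rose to 34.6 and 34.7 CPM in CU-T12-9 cells, against 28.3 and 29.4 CPM in DMSO cells (0.26, SE 0.07, adjusted p = 0.00745). The 2 versions thus moved in opposite directions with no overlap between groups in either. Such a lack of overlap was common: of all genes tested, 41.7% lay wholly below and 40.5% wholly above under CU-T12-9. The log2 ratio of POLR3G reads to POLR3GL reads was -4.32 and -4.59 in CU-T12-9 libraries and -2.01 and -1.93 in DMSO libraries, a 5.6-fold lower ratio under CU-T12-9 (difference -2.49). A two-sided exact permutation test over the 4 libraries gave p = 0.333, the smallest p this design can give. Per length of the main GENCODE 29 transcript, POLR3G made up 1.73% and 1.43% of the reads of the pair in CU-T12-9 libraries, against 8.05% and 8.52% in DMSO libraries. Exons of POLR3GL share 13.7% of their bases with AC243547.3 on the same strand. The fall of POLR3G kept its call in every alternative setting that used all 4 libraries, and was -2.34 to -2.10 over all 12 settings. The rise of POLR3GL did not keep its call, with an adjusted p of 0.0611 by DESeq2. With 1 library left out, its log2 fold change ran from 0.23 to 0.30.

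**Figure D3:**
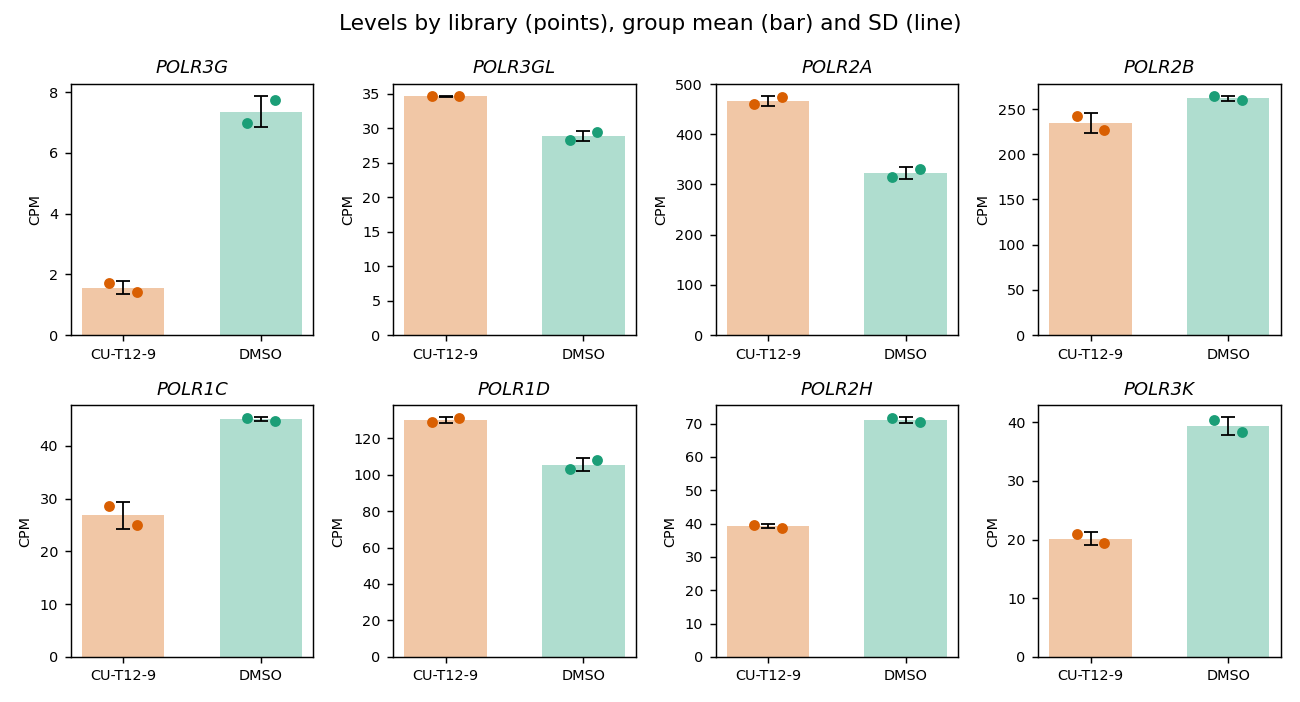
CPM of 8 genes in each library (points), with group means (bars) and SD (lines), 2 libraries per group, CU-T12-9 left of DMSO. In the pairs POLR3G and POLR3GL, POLR2A and POLR2B, and POLR1C and POLR1D, 1 gene is lower and the other higher under CU-T12-9, and POLR2H and POLR3K are lower.

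POLR3C and POLR3F, which bind POLR3G or POLR3GL in a 3-part unit needed for initiation, did not follow POLR3G. POLR3C had 54.7 and 52.3 CPM in CU-T12-9 cells, against 55.3 and 56.2 CPM in DMSO cells (log2 fold change -0.06, SE 0.06, edgeR adjusted p = 0.398). POLR3F had 15.2 and 14 CPM in CU-T12-9 cells, against 13.5 and 13.7 CPM in DMSO cells (0.10, SE 0.09, adjusted p = 0.362). Neither passed the test.

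POLR3K, a small subunit for RNA cleavage and termination, had the second-largest fall of the 40 genes, to 20.9 and 19.4 CPM in CU-T12-9 cells, against 40.4 and 38.3 CPM in DMSO cells (log2 fold change -0.97, SE 0.08, edgeR adjusted p = 4.23e-06). CRCP, a polymerase III subunit under a symbol outside the rule, fell by 0.33 on the log2 scale. POLR3D and POLR3E, a dimer that acts in initiation and termination, fell by 0.33 and 0.42. The large subunits differed: POLR3B fell to 22.5 and 23.2 CPM in CU-T12-9 cells, against 32.7 and 31.9 CPM in DMSO cells (-0.50, SE 0.07, adjusted p = 2.25e-04), and POLR3A, the catalytic one, had 56.1 and 52.6 CPM in CU-T12-9 cells, against 61.2 and 59.7 CPM in DMSO cells (-0.16, SE 0.06, adjusted p = 0.0483). POLR3A had the highest adjusted p of the 28 called genes, and DESeq2 did not call it (adjusted p = 0.235). In edgeR its adjusted p was 0.0651 with DESeq2 size factors and 0.0599 with the replicate number as a block. It was 0.0549 with no filter on low counts and 0.0579 with a filter of 1 CPM in 2 libraries. With 1 library left out, its log2 fold change ran from -0.18 to -0.11.

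BRF1 and BRF2 are the alternative TFIIB-like factors that place polymerase III on transfer RNA genes and on U6-type genes. BRF1 had 47 and 51 CPM in CU-T12-9 cells, against 54.7 and 53.4 CPM in DMSO cells (log2 fold change -0.14, SE 0.06, edgeR adjusted p = 0.0798). BRF2 had 21 and 20.1 CPM in CU-T12-9 cells, against 18.2 and 20.5 CPM in DMSO cells (0.09, SE 0.09, adjusted p = 0.425), with 59.6% of its exonic bases opposite ADGRA2. POLRMT, which transcribes the mitochondrial genome, had 103 and 111 CPM in CU-T12-9 cells, against 123 and 113 CPM in DMSO cells (-0.14, SE 0.06, adjusted p = 0.0813). None of the 3 passed. The CU-T12-9 libraries differed for BRF1 and POLRMT: each was at -0.20 without library 2 and at -0.05 without library 1.

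Asked whether each change exceeded a fold of 1.2, edgeR called 16 of the 40 genes lower and POLR2A alone higher, against 23.8% lower and 22.9% higher over all genes tested. Among the 16 were POLR1B, POLR1C, POLR1E, TAF1D, POLR2C, POLR2D, POLR2F, POLR2H, POLR2I, POLR2K, POLR2L, POLR3B, POLR3E, POLR3G and POLR3K. POLR1A, POLR2B, POLR2E and POLR3A were not among them, nor were POLR1D and POLR3GL among the rises.

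Genes that work with the polymerases were read from lists by role. Of 13 genes of polymerase assembly, 8 fell (61.5%) and none rose, against 33.2% and 32.0% of all genes tested (median log2 fold change -0.33). RUVBL2 and RUVBL1, paired ATPases of the R2TP chaperone, fell by 1.15 and 1.04, RUVBL2 to 150 ± 6.92 CPM in CU-T12-9 cells, against 334 ± 12 CPM in DMSO cells (SD, n = 2 each). GPN3, a GTPase for nuclear import of polymerase II, fell by 1.04 and the prefoldin-like URI1 by 0.63. Of 11 tested partners of polymerase I, 8 fell (72.7%) and 2 rose (18.2%), beside the same shares of all genes (median -0.31). TCOF1, a nucleolar protein needed for ribosomal RNA synthesis, fell to 50.8 ± 1.34 CPM in CU-T12-9 cells, against 120 ± 1.41 CPM in DMSO cells (SD, n = 2 each), and the abundant nucleolar proteins NCL, NOLC1 and NPM1 fell by 1.02, 0.77 and 0.73.

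Of 15 factors of polymerase III, 5 fell (33.3%) and 3 rose (20.0%), against 33.2% and 32.0% of all genes tested (median log2 fold change -0.17), so the share of falls was that of all genes. GTF3C1, the largest subunit of TFIIIC, rose to 183 ± 3.01 CPM in CU-T12-9 cells, against 95 ± 3.3 CPM in DMSO cells (SD, n = 2 each; 0.95, SE 0.05, edgeR adjusted p = 4.21e-07). SSB, the La protein that binds new polymerase III transcripts, fell by 0.92, GTF3C5 of the same TFIIIC complex fell by 0.50, and SNAPC2 rose by 0.58. MAF1, the repressor of polymerase III, did not pass (-0.15, adjusted p = 0.0939).

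Of 31 general factors of polymerase II, 15 fell (48.4%) and 7 rose (22.6%), against 33.2% and 32.0% of all genes tested (median -0.14). Among them were the TFIID subunits TAF9 (-0.81), TAF5 (-0.76) and TAF13 (0.57) and the TFIIA gene GTF2A1 (-0.49). Of 23 elongation factors 6 fell and 6 rose, or 26.1% each way, below the share of all genes in both directions (median 0.02). SSRP1 and SUPT16H, the histone chaperone FACT, fell by 0.88 and 0.70, RPRD1B fell by 0.37, and SUPT6H, which travels with elongating polymerase II, rose by 0.47. Of 10 genes for transcription, RNA handling and DNA replication in mitochondria, 7 fell (70.0%) and 1 rose (median -0.40). The falls were led by SLIRP (-1.07), TFB2M (-0.79), C10orf2 (-0.72) and TFB1M (-0.61). C10orf2 and the gene that rose belong to DNA replication, so these shares do not describe mitochondrial transcription alone. Of 13 mitochondrially encoded messenger RNAs, 8 rose (61.5%) and 1 fell (7.69%, median 0.23).

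Among 10 regulators of polymerases I and III, 6 rose (60.0%) and 2 fell (20.0%), against 32.0% and 33.2% of all genes tested (median 0.20). The list mixes activators with restraining factors, so these shares have no single direction of effect, and MAF1 is counted here and among the polymerase III factors. The activator MYC fell to 233 ± 1.2 CPM in CU-T12-9 cells, against 471 ± 1.39 CPM in DMSO cells (SD, n = 2 each). The RB family genes RBL1 and RBL2, both restraining factors, split: RBL1 fell by 1.58 and RBL2 rose by 0.53. Of 19 transcripts of polymerases I and III looked for, 8 had enough reads to test, and 3 rose (37.5%) and 1 fell (12.5%). RN7SK, which holds back the elongation kinase of polymerase II, rose to 14 and 17 CPM in CU-T12-9 cells, against 9.79 and 8.27 CPM in DMSO cells (0.78, SE 0.13, edgeR adjusted p = 6.64e-04). RNA28S5 had 1320 and 1980 CPM in CU-T12-9 cells, against 1010 and 1120 CPM in DMSO cells. These RNAs have many near-identical copies, and the labels do not state a poly(A) selection step, so their values are no measure of polymerase I or III output.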

How the data were processed

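The deposited data are raw read counts, 1 row per gene symbol and 1 column for each of 4 libraries. The submitters' processing notes name FastQC 0.11.7, TopHat2, featureCounts 1.5.2 and the GRCh37 build. No annotation, strand setting or rule for multi-mapping reads is stated there, which leaves overlapping genes and near-identical copies uncertain. Counts were tested with edgeR 4.0.16 in R 4.3.3 by the quasi-likelihood method (filterByExpr, TMM, group as the only term, Benjamini-Hochberg adjustment over all 14018 genes tested, threshold 0.05). Each standard error is the absolute log2 fold change over √F. DESeq2 1.42.0 and limma 3.58.1 were alternatives. The test was run on simulated data first. Ratios of reads used a pseudocount of 0.5 reads, and exact permutation over libraries. Libraries of a group differed by more than counting noise (chi-square per degree of freedom 7.49 for CU-T12-9 and 2.55 for DMSO), so none is a repeat deposit of another; this does not show separate cultures. The genes of the rule are named, apart from 1 that is not reported here. From each companion list of more than 6, at most 4 called genes with at least 5 CPM and the largest changes are named, with MAF1, RN7SK and RNA28S5 added after their values were seen. The genes and lists were chosen with earlier results of these data known. Exon overlaps came from GENCODE 29 and promoters from RefSeq, both on GRCh38, matched by symbol.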

Additional observations from a re-analysis of the deposited data

How the results depend on the processing

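The calls of the 40 genes were recomputed under 12 alternatives. Where 1 library was left out, its group kept 1 library, so the spread came from the other group alone. Calls gained or lost in those fits are therefore not comparable with the main calls, and only their log2 fold changes are given. With all 4 libraries, the number of genes that fell (23) stayed between 16 and 24. The number that rose (5) was 3 with library totals only, 2 by DESeq2 and 1 against a fold of 1.2. Against a fold of 1.2, the falls among polymerase I rows were 3 in place of 6. Direction changed only for genes that were not called. The log2 fold change of UBTF was 0.00 with DESeq2 size factors. With 1 library left out it ran from -0.06 to 0.02 for UBTF, from -0.05 to 0.10 for POLR2J4, from -0.15 to 0.77 for POLR2J3 and from -0.01 to 0.17 for BRF2. The cause of these shifts was not tested. Same-numbered libraries did not deviate together (correlation 0.00795 across genes), and with the replicate number as a block 22 genes fell and 4 rose, POLR3A and POLR2J2 losing their call (adjusted p = 0.0599 and 0.0525). The difference in the log2 ratio of POLR3G to POLR3GL was -2.35 with 5 reads added and -2.62 to -2.35 with 1 library left out. Low counts limit POLR3G, TAF1A, POLR2J2 and POLR2J3 most.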
